A study of Mus musculus with 6 samples.

Results

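The genes described are 52 genes of the Wnt signalling pathway, chosen by their symbols from textbook knowledge of the pathway. The choice was made with earlier results of these data known. These genes comprise ligands, an enzyme of ligand processing, receptors, secreted inhibitors, intracellular parts and feedback target genes. Of these, 47 had a row among the 22432 genes of the authors' deposited table. Wnt4, Wnt6, Wnt7b, Wnt10b and Dkk2 had none and were not analysed here.

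The study measured total RNA by sequencing in 6 samples of male germline stem cells from mouse cultures, which sustain sperm production. They comprised 3 CDH1+/THY1+ samples and 3 CDH1-/THY1+ samples, named for the surface proteins CDH1 (E-cadherin, an adhesion molecule) and THY1 (a glycoprotein used to enrich these cells). Both populations had 1 sample from each of 3 cultures at passage 6 to 8. These were RP7 (age 8 weeks) and RP5 (age 19 days), both with the strain label OCT4/GFP; Dox-OCT4, and WT1 (age 5 weeks, strain C57BL/6). All of the cultures were grown on DR4 feeder fibroblasts in a medium with rat GDNF and human FGF. How much feeder RNA each sample held is unknown.

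Wnt proteins are lipid-modified ligands that bind Frizzled receptors. With the co-receptors Lrp5 and Lrp6, and Dishevelled inside the cell, they block the Axin, Apc and Gsk3 complex that marks beta-catenin for degradation. Stabilised beta-catenin acts with Tcf and Lef factors on target genes, several of which feed back on the pathway, and a separate pool of beta-catenin binds the inner tail of E-cadherin. Other branches run through Ror and Ryk receptors or the planar polarity proteins, and Wnt signals have been linked to the growth of spermatogonial stem cells.

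The table gives, for each gene, a mean normalised count over all 6 libraries and a log2 fold change of CDH1+/THY1+ over CDH1-/THY1+ samples, with the standard error, p-value and adjusted p-value of a DESeq2 Wald test. A value written with ± is that log2 fold change and its standard error. A gene was called higher or lower in CDH1+/THY1+ samples at an adjusted p under 0.05. The table holds no value per library, so the depth per sample, the spread within a population and any overlap between the populations are unknown. The direction rests on the name of the table, since Cdh1 was not analysed here, and the highest log2 fold change among the rows was 2.14, so counts cover the rows analysed. Germ cell and fibroblast markers bear on the samples' makeup. In the authors' deposited table, 18 of 21 germ cell markers were lower and 0 higher in CDH1+/THY1+ samples (median log2 fold change -1.53). Of 30 fibroblast markers, 10 were higher and 0 lower (median 0.71). That is 85.7% and 33.3% called, against 33.5% of all genes tested (17.1% higher and 16.4% lower). The germ cell markers Etv5, Lin28a and Sall4 were not called (0.20, -0.29 and -0.36). Nor were 20 fibroblast markers, among them Postn at 0.04 and Lox at -0.08, though 28 of the 30 lay above 0. The summed mean counts were 67950 for the germ cell list, with Dazl, an RNA-binding germ cell protein, at 14797, and 455292 for the fibroblast list, whose least abundant member had 81.4. Over all rows the sum was 16900379. The list sums do not measure how much RNA each cell type gave. The table gives no sum per population. Fewer cells of a type and less RNA per cell cannot be told apart in such samples, and the part of the makeup in the values below was not tested.

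Of the 47 Wnt pathway genes, 17 were called in the authors' deposited table by DESeq2, 9 higher and 8 lower in CDH1+/THY1+ samples. This is 36.2% of the members, against 33.5% of all 19211 genes with an adjusted p-value (17.1% higher and 16.4% lower), so the share of calls among the members was near the background. Their median log2 fold change was 0.14, against 0.01 over all genes. The calls ran in both directions within 4 of the 6 roles, and no role was tested as a set. The Frizzled receptor gene Fzd3 was lowest at -1.71 ± 0.19, and the Tcf family gene Tcf7l1 was highest at 1.52 ± 0.36 by the authors' deposited table. The mean count of Tcf7l1 was only 44.0, against 823 for Fzd3. Among the called genes, 5 differed by at least 2-fold: Tcf7l1, Wnt5a, Fzd5 and Lgr4 on the higher side and Fzd3 on the lower side.

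**Figure D1:**
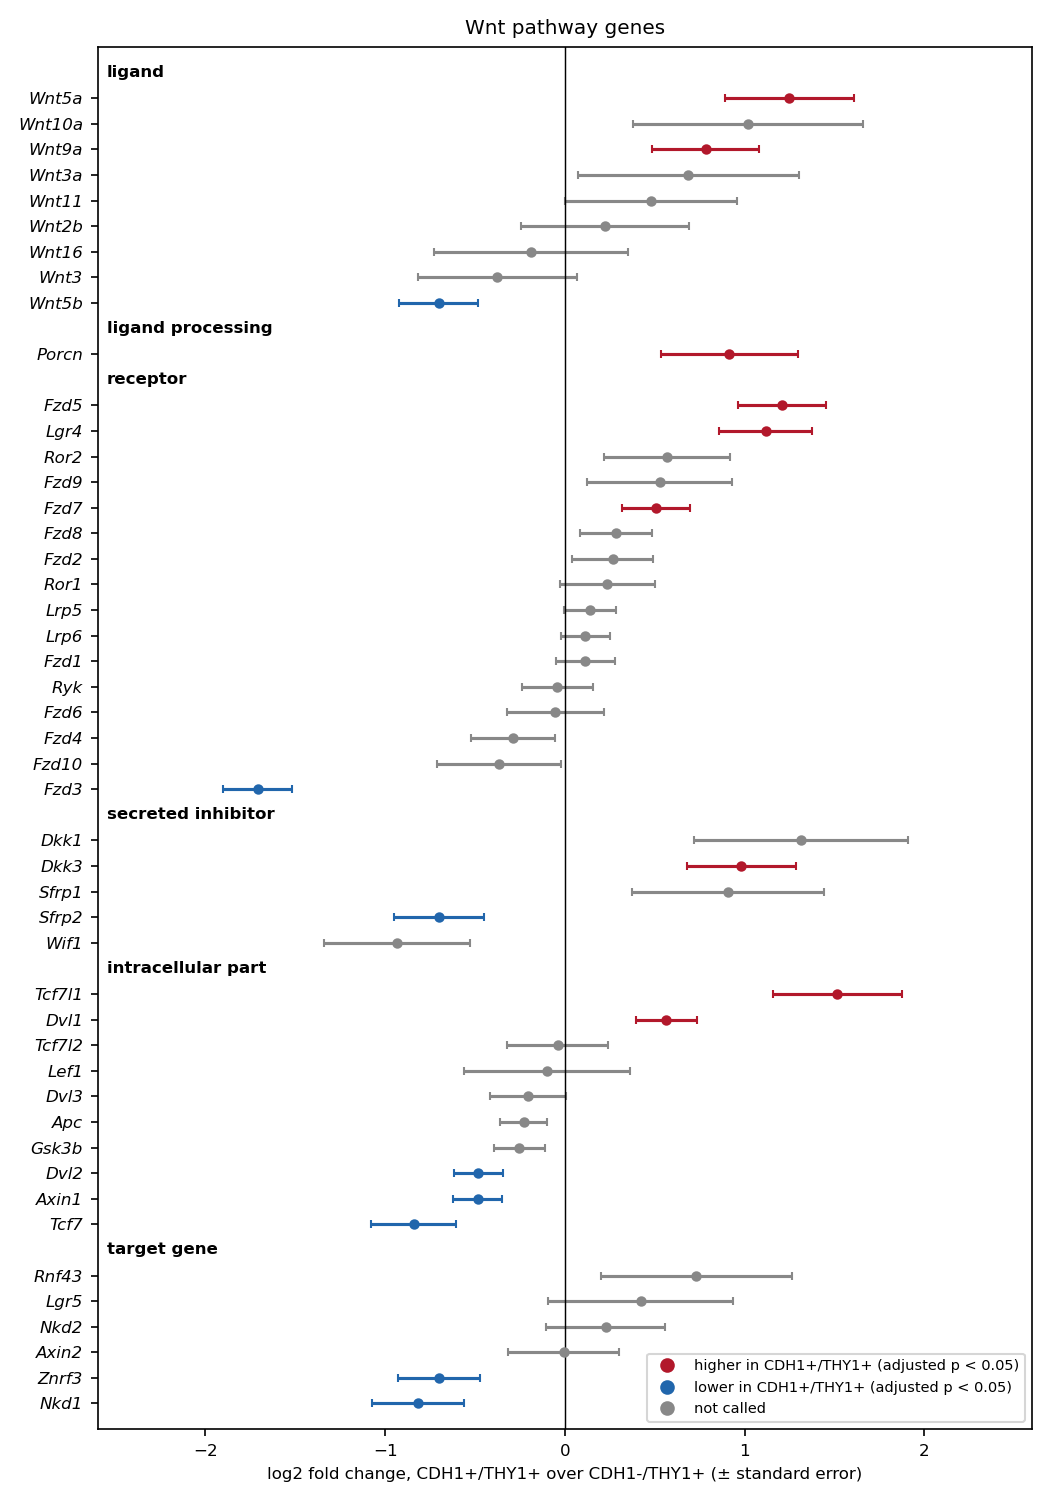
Log2 fold change (x axis; CDH1+/THY1+ relative to CDH1-/THY1+) of the 47 Wnt pathway genes with a row, by role, with points for the authors' deposited values and bars for 1 standard error. Red and blue points are the 9 higher and 8 lower genes, and Fzd3 at -1.71 stands apart from the other receptors.

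Promoters are shown for 4 genes to which the results return: 2 with a match to the short core motif that Tcf and Lef factors are known to bind, and Lgr4 and Axin2, which have none in this window. The motif was searched as CTTTGAA or CTTTGAT or CTTTGTA or CTTTGTT on both strands of the 250 bases before each start site in RefSeq's GRCm38.p6. The 4 words do not overlap each other on one strand. A match was found in 6 of 41 windows of the members (14.63%, from 32 genes with a window), against 14.84% of 32851 windows of all genes. The matches lay in windows of Wnt5b, Wnt11, Fzd7, Dkk1, Tcf7l2 and Lef1, and a match is a description of letters, not a binding site. The sequences run 5′ to 3′ on the gene's strand, with the match in capitals. The Fzd7 window is chr1:59481897-59482146 (+ strand), the Wnt5b window, at the third of its listed start sites, chr6:119449387-119449636 (- strand), the Lgr4 window chr2:109917397-109917646 (+ strand) and the Axin2 window chr11:108920099-108920348 (+ strand).
Fzd7: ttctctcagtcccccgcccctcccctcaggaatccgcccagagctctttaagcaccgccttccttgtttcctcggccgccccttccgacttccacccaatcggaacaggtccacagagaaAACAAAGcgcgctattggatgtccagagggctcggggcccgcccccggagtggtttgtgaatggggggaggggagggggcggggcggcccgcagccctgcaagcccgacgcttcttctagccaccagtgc
Wnt5b: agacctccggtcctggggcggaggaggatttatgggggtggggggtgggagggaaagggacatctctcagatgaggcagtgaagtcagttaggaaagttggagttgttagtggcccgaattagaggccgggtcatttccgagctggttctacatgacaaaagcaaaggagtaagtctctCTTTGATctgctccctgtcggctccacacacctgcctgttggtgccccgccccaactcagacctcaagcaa
Lgr4: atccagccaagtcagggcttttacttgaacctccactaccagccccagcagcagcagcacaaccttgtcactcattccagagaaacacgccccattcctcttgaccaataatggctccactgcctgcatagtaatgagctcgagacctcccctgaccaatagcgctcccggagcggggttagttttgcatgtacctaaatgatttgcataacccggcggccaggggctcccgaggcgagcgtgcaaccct
Axin2: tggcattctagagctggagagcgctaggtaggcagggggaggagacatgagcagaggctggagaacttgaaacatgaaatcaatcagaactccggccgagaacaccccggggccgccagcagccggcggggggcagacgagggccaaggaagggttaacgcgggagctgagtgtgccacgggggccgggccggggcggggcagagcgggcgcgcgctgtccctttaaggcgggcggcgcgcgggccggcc
In Fzd7 the match is on the opposite strand and begins 130 bases before the start, and in Wnt5b it begins 71 bases before it. Fzd7 was higher and Wnt5b lower in CDH1+/THY1+ samples, and the matched genes Wnt11, Dkk1, Tcf7l2 and Lef1 were not called. The 32 genes with a window do not include Wnt5a or Fzd3. Whether the motif goes with a direction of change was not tested.

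Among the ligands, 2 of 9 genes were higher and 1 was lower in CDH1+/THY1+ samples, 33.3% called against 33.5% of all genes tested. The closely related Wnt5a and Wnt5b moved apart. Wnt5a, a ligand known mainly for beta-catenin-independent signalling (chromosome 14, 28504750 to 28527448 in GRCm38), rose to 1.25 ± 0.36, a 2.38-fold difference with an adjusted p of 0.00249 according to the authors' deposited table. Its mean normalised count was 347. Wnt5b, its close relative on chromosome 6 (119432531 to 119544347), fell to -0.70 ± 0.22 with an adjusted p of 0.00604 by the authors' deposited table, where its mean count was 173. Wnt9a (chromosome 11, 59306928 to 59333552) was higher at 0.78 ± 0.30 with a mean count of 69.4 and an adjusted p of 0.0263 according to the authors' deposited table. Neither the call of Wnt5b nor that of Wnt9a held under a Benjamini-Yekutieli adjustment over all genes (adjusted p = 0.082 and 0.345).

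Per kilobase of annotated exon, Wnt5b had the highest mean level of the ligands, 65.3 normalised counts per kilobase, followed by Wnt5a at 44.3, Wnt3 at 41.2 and Wnt9a at 20.9. Such an order depends on the exon length used, which was 7823 bases for Wnt5a and 2654 for Wnt5b. By mean count Wnt5a, at 347, lay above Wnt5b, at 173. The order per kilobase is of means over both populations. The levels derived from the mean count and fold change, which were not measured, order Wnt5a and Wnt5b differently in each. They put Wnt5a at 62.4 and Wnt5b at 49.7 per kilobase in CDH1+/THY1+ samples, against 26.2 and 80.9 in CDH1-/THY1+ samples. The remaining 5 ligands, Wnt2b, Wnt3a, Wnt10a, Wnt11 and Wnt16, had 1.85 to 6.63 per kilobase. None of those 5 was called, with log2 fold changes of -0.19 to 1.02. Wnt3, a ligand of the beta-catenin branch, had a mean count of 127 and a value of -0.37 ± 0.44 by the authors' deposited table (adjusted p = 0.555). Its 95% interval ran from 0.424-fold to 1.40-fold, on both sides of equality. For Wnt3a and Wnt10a, with mean counts of 9.57 and 4.58, the standard errors of 0.61 and 0.64 lay close to the largest of the authors' deposited table, 0.64.

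Porcn, the acyltransferase that attaches the lipid Wnt proteins need for secretion, lies on the X chromosome (8193848 to 8206525). It was higher at 0.92 ± 0.38 according to the authors' deposited table, with a mean count of 101 and an adjusted p of 0.0469, the member nearest to the threshold on its inner side. The call did not hold when Benjamini-Hochberg ran on every p-value of the table, under a Benjamini-Yekutieli adjustment (adjusted p = 0.609) or at a threshold of 0.01.

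Among the 16 receptor genes, 3 were higher and 1 was lower in CDH1+/THY1+ samples, 25% called against 33.5% of all genes tested. The 2 Frizzled genes with the largest differences moved apart. Fzd3, a Frizzled known for planar polarity and axon guidance (chromosome 14, 65192449 to 65262463), fell to -1.71 ± 0.19 with an adjusted p of 3.55e-17 by the authors' deposited table. That is 3.27-fold lower, with a 95% interval for CDH1+/THY1+ over CDH1-/THY1+ of 0.236 to 0.396. The germ cell markers had a median of -1.53 in the same comparison. Fzd5, a Frizzled that couples to beta-catenin (chromosome 1, 64730558 to 64737751), rose to 1.21 ± 0.24, 2.31-fold (adjusted p = 7.59e-06), according to the authors' deposited table. Exons of the opposite-strand gene Gm38058 cover 17.8% of the Fzd5 exon length, and whether the authors counted by strand is not given in the sources used here.

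Lgr4, a receptor for R-spondins, the secreted proteins that strengthen Wnt signals (chromosome 2, 109917647 to 110014257), was higher at 1.12 ± 0.26 by the authors' deposited table. It was 2.17-fold higher, with a mean count of 1033 and an adjusted p of 0.000127. Fzd7, known from intestinal stem cells (chromosome 1, 59482424 to 59486955), was higher at 0.51 ± 0.19 with a mean count of 1106 and an adjusted p of 0.0245 according to the authors' deposited table. It did not hold under Benjamini-Yekutieli (adjusted p = 0.322).

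The level in each population was worked out from the authors' mean count and fold change, taking the mean count as the average of both populations. These are not measured group means, and they lie closer together than the counts would where the fold change was shrunken. On this scale Fzd5 stood at 120 and Fzd3 at 30.1 normalised counts per kilobase in CDH1+/THY1+ samples, against 51.9 for Fzd5 and 98.4 for Fzd3 in CDH1-/THY1+ samples. The order of these 2 receptor genes therefore differed between the populations. Fzd7 had 287 per kilobase in CDH1+/THY1+ samples and 201 in CDH1-/THY1+ samples, above both genes in either population. The difference between the fold changes of Fzd5 and Fzd3 was not tested.

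**Figure D2:**
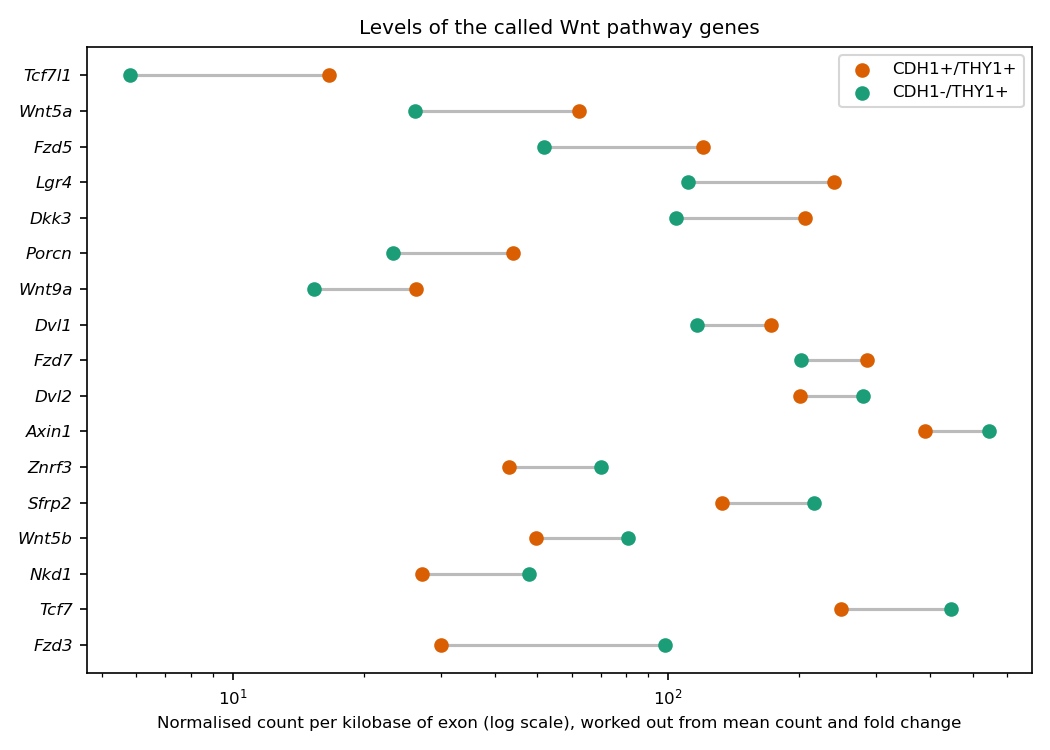
Normalised count per kilobase of exon (x axis, log scale) of the 17 called Wnt pathway genes, in order of fold change, as worked out from the authors' mean count and fold change for CDH1+/THY1+ (orange) and CDH1-/THY1+ (green); no error can be given. Fzd5 stands at 120 in CDH1+/THY1+ and 51.9 in CDH1-/THY1+ samples, and Fzd3 at 30.1 in CDH1+/THY1+ and 98.4 in CDH1-/THY1+ samples.

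The other 12 receptor genes were not called. Ryk, a kinase-like co-receptor, had the highest mean level of the receptors, 822 per kilobase, with a value of -0.04 ± 0.20 by the authors' deposited table (adjusted p = 0.901). Its 95% interval ran from 0.743-fold to 1.27-fold. Lrp5 and Lrp6, the co-receptors of the beta-catenin branch, had 178 and 172 per kilobase and values of 0.14 ± 0.14 and 0.11 ± 0.14 according to the authors' deposited table. Their intervals were narrow, from 0.908-fold to 1.34-fold for Lrp5 and from 0.898-fold to 1.30-fold for Lrp6.

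Fzd2 and Fzd1 stood at 268 and 220 per kilobase, with values of 0.27 ± 0.23 and 0.11 ± 0.16 by the authors' deposited table. Fzd10 and the tyrosine kinase receptor Ror2, which binds Wnt5a, had -0.37 ± 0.34 and 0.57 ± 0.35 in that table, and intervals from 0.486-fold to 1.24-fold and from 0.919-fold to 2.39-fold. Of the less abundant receptors, Fzd6, Ror1, Fzd8 and Fzd4 lay between -0.29 and 0.28, and Fzd9, with a mean count of 37.7, at 0.53. The spread within a population is unknown, so neighbours in this order of levels cannot be said to differ.

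Among the 5 secreted inhibitors, 1 was higher and 1 was lower, 40% called against 33.5% of all genes tested. Dkk3, a Dickkopf family protein whose action on Wnt signals is debated (chromosome 7, 112116017 to 112159057), was higher at 0.98 ± 0.30 with a mean count of 522 and an adjusted p of 0.0052 according to the authors' deposited table. Sfrp2, a secreted protein that binds Wnt ligands (chromosome 3, 83766321 to 83774316), fell to -0.70 ± 0.25 with a mean count of 375 and an adjusted p of 0.0169 by the authors' deposited table. Neither held under Benjamini-Yekutieli (adjusted p = 0.0708 for Dkk3 and 0.224 for Sfrp2). Exons of the opposite-strand gene Gm26771 cover 16.1% of the Sfrp2 exon length.

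Sfrp1, of the same family as Sfrp2, had the highest mean level of the inhibitors, 716 per kilobase, and a mean count of 3131. Its value was 0.91 ± 0.53 without a call (adjusted p = 0.181) according to the authors' deposited table, and its 95% interval ran from 0.91-fold to 3.89-fold. That standard error was larger than those of 99% of the 200 genes of nearest mean count. Among the 30 fibroblast markers, ranked in the same way, 18 had a standard error above those of 90% of such genes, and the median was 92.8%. They ranged from 17% for the collagen gene Col5a2 to 100% for Pdgfra, a growth factor receptor gene, and Tagln, which encodes an actin-binding protein. High ranks were not limited to that list. The median was 84.5% for 21 germ cell markers, 96% for 5 Sertoli cell markers with a rank and 71.25% for the 36 ranked members. Whether the wide standard error of Sfrp1 goes with feeder RNA was not tested. Dkk1, the inhibitor that binds Lrp5 and Lrp6, had 1.32 ± 0.59 at a mean count of 29.4, and Wif1, which binds Wnt ligands, had -0.93 ± 0.41 at 60.6. They lay just outside the threshold according to the authors' deposited table, with adjusted p-values of 0.0704 for Dkk1 and 0.0584 for Wif1.

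**Figure D3:**
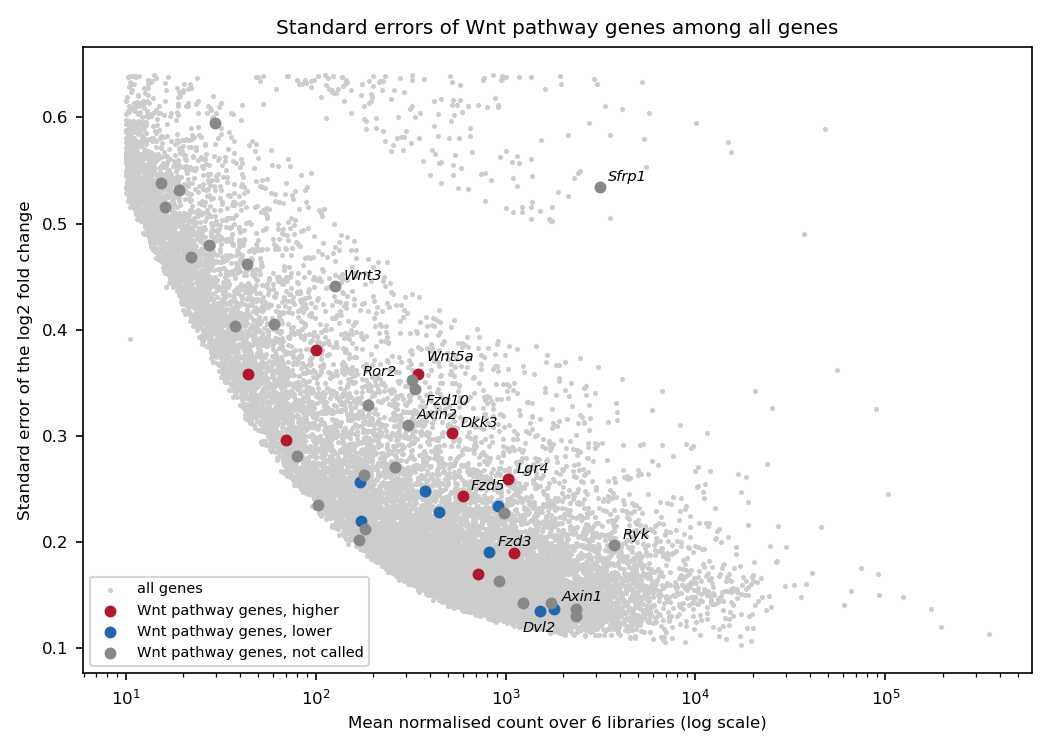
Standard error of the log2 fold change (y axis) against mean normalised count (x axis, log scale) for every gene whose mean count reached 10 (grey) and the Wnt pathway genes among them (red higher, blue lower, dark grey not called). Sfrp1, at 0.53, lies far above genes of like count, while Dvl2 and Axin1, at 0.14 each, lie near the lower edge.

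Among the 10 intracellular parts, 2 were higher and 3 were lower, 50% called against 33.5% of all genes tested. Axin1, the scaffold of the beta-catenin degradation complex (chromosome 17, 26138688 to 26195811), had the highest mean level of them, 468 per kilobase, and fell to -0.48 ± 0.14 by the authors' deposited table (1.40-fold lower, adjusted p = 0.00208). The complex members Apc and Gsk3b had -0.23 ± 0.13 and -0.25 ± 0.14 according to the authors' deposited table and were not called (adjusted p = 0.17 and 0.161). Their 95% intervals, from 0.715-fold to 1.02-fold for Apc and from 0.691-fold to 1.02-fold for Gsk3b, reach little above equality.

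The Dishevelled genes, whose proteins pass the signal from the receptors on, did not move together. Dvl1 (chromosome 4, 155847402 to 155859303) was higher at 0.56 ± 0.17 with a mean count of 720 and an adjusted p of 0.00415 by the authors' deposited table. Dvl2 (chromosome 11, 70000595 to 70012301) fell to -0.48 ± 0.14 with a mean count of 1513 and an adjusted p of 0.002 according to the authors' deposited table. Dvl3 had -0.21 ± 0.21 without a call (adjusted p = 0.491) by the authors' deposited table. Exons of Acadvl, on the opposite strand, cover 18.3% of the Dvl2 exon length, and Dvl1 was not called under Benjamini-Yekutieli (adjusted p = 0.0568).

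Of the 4 Tcf and Lef factors, Tcf7 was the most abundant at 347 per kilobase, against 11.2 for Tcf7l1, 9.07 for Tcf7l2 and 4.98 for Lef1. Tcf7, also called Tcf1 and known as an activator with beta-catenin (chromosome 11, 52252371 to 52283014), fell to -0.84 ± 0.23 with an adjusted p of 0.00173 according to the authors' deposited table. Tcf7l1, also called Tcf3 and known as a repressor in mouse embryonic stem cells (chromosome 6, 72626378 to 72789254), was higher at 1.52 ± 0.36, 2.86-fold, with an adjusted p of 0.000172 by the authors' deposited table. Mean counts were 912 for Tcf7 and 44.0 for Tcf7l1. In levels worked out as above, Tcf7 had 249 per kilobase in CDH1+/THY1+ samples and 446 in CDH1-/THY1+ samples, and Tcf7l1 had 16.6 in CDH1+/THY1+ samples and 5.82 in CDH1-/THY1+ samples. Tcf7 was therefore the more abundant of these 2 in either population. Tcf7l2 and Lef1 had -0.04 ± 0.28 and -0.10 ± 0.46 according to the authors' deposited table, at mean counts of 79.6 and 43.8, without a call.

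Among the 6 feedback target genes, 0 were higher and 2 were lower, 33.3% called against 33.5% of all genes tested. Nkd1, which binds Dishevelled and dampens the signal (chromosome 8, 88521354 to 88594884), fell to -0.82 ± 0.26 with a mean count of 171 and an adjusted p of 0.00635 by the authors' deposited table. Znrf3, a ubiquitin ligase that removes Frizzled receptors from the surface (chromosome 11, 5276324 to 5444847), fell to -0.70 ± 0.23 with a mean count of 447 and an adjusted p of 0.00909 according to the authors' deposited table. Neither gene was called under Benjamini-Yekutieli (adjusted p = 0.0862 for Nkd1 and 0.122 for Znrf3).

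Axin2, the feedback scaffold widely used as a readout of beta-catenin signalling, had a mean count of 308 and a value of -0.01 ± 0.31 by the authors' deposited table (adjusted p = 0.99). Its 95% interval ran from 0.653-fold to 1.52-fold, on both sides of equality. Nkd2 had 0.23 ± 0.33 at a mean count of 190 according to the authors' deposited table, without a call (adjusted p = 0.642). Rnf43, a ubiquitin ligase related to Znrf3, and Lgr5, a stem cell receptor for R-spondins, had mean counts of 19.1 and 16 and values of 0.73 ± 0.53 and 0.42 ± 0.52 by the authors' deposited table, without a call. Per kilobase, Znrf3 and Axin2 stood at 56.6 and 55.9, and Rnf43 and Lgr5 at 2.92 and 1.56.

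A further 82 genes of the pathway were listed beside the members, of which 76 had a row and 74 an adjusted p-value. The authors' deposited table gave 16 of them as higher and 11 as lower in CDH1+/THY1+ samples, 36.5% against the background of 33.5%, with a median log2 fold change of 0.06. Beta-catenin itself, Ctnnb1, had a mean count of 17353 and a value of 0.22 ± 0.10 without a call (adjusted p = 0.0901) according to the authors' deposited table. Wls, the carrier that takes Wnt proteins to the cell surface, was higher at 1.04 ± 0.26 (adjusted p = 0.000401) by the authors' deposited table, in the same direction as Porcn. Notum, listed with Wls under ligand secretion and removal, was also higher at 0.95 ± 0.39 (adjusted p = 0.0459), at a mean count of 56.2. Neither Porcn nor Notum was called under Benjamini-Yekutieli (adjusted p = 0.609 and 0.597).

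Of 12 planar cell polarity genes, 4 were higher and 1 was lower, 41.7% called against 33.5% of all genes tested. Vangl1, a membrane protein of that branch (chromosome 3, 102153583 to 102204693), had 1.48 ± 0.17 (adjusted p = 9.46e-16) according to the authors' deposited table. The atypical cadherin genes Celsr1 and Celsr2 moved apart, with 1.66 ± 0.34 (adjusted p = 7.65e-06) for Celsr1 and -1.39 ± 0.24 (adjusted p = 1.78e-07) for Celsr2 by the authors' deposited table. Of 13 nuclear cofactors, 3 were higher and 4 were lower, 53.8% called against the same 33.5%. The corepressor gene Ctbp2 rose to 1.70 ± 0.23 (adjusted p = 1.24e-11) according to the authors' deposited table. Tle3 and Tle1, Groucho-type corepressors that bind Tcf factors, fell to -0.93 ± 0.17 and -0.76 ± 0.16 by the authors' deposited table. The Tle genes did not move together. Tle2 was higher at 1.23 ± 0.50 (adjusted p = 0.0402), and Tle4 was not called at -0.22 ± 0.22 by the authors' deposited table. Aes was also higher, at 0.50 ± 0.19 (adjusted p = 0.0245). Pygo2, a coactivator of beta-catenin, fell to -0.62 ± 0.14 by the authors' deposited table.

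Of 16 genes listed under beta-catenin and its degradation, 2 were higher and 1 was lower, 18.8% called against 33.5% of all genes tested. The lower one was the kinase gene Csnk1g1 at -0.72 ± 0.15 (adjusted p = 1.58e-05) according to the authors' deposited table. The higher ones were the casein kinase genes Csnk1a1 at 0.45 ± 0.13 (adjusted p = 0.00394) and Csnk1e at 0.50 ± 0.15 (adjusted p = 0.00286) by the authors' deposited table. Csnk1g1 was listed with these and other casein kinase genes, and its part in degradation is not shown here. Of 15 further target genes with a row, 4 were higher and 3 lower, 46.7% called against the same 33.5%. Among them was Cd44, a hyaluronan receptor that is also on the fibroblast list, at 1.14 ± 0.23 (adjusted p = 5.55e-06) by the authors' deposited table. Tnfrsf19, Vcan and Myc were also higher, at 1.56 ± 0.45, 1.08 ± 0.33 and 1.01 ± 0.26. The lower ones were Fgf9 at -1.03 ± 0.34, Ascl2 at -0.91 ± 0.33 and Bambi at -0.64 ± 0.20 by the authors' deposited table. The 4 R-spondin genes, singled out after their values were seen because their receptor gene Lgr4 was higher, had 0 higher and 2 lower. That is 50% called against the same 33.5%. Rspo4 had -2.05 ± 0.41 and Rspo1 -1.31 ± 0.44 according to the authors' deposited table, at mean counts of 44.4 and 66. Under Benjamini-Yekutieli, Rspo4 was still called (adjusted p = 0.000119) and Rspo1 was not (adjusted p = 0.161). Rspo2, with a mean count of 1662, had -0.80 ± 0.38, and Rspo3, with 464, had -0.02 ± 0.30 by the authors' deposited table, neither called (adjusted p = 0.0861 and 0.975).

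**Figure D4:**
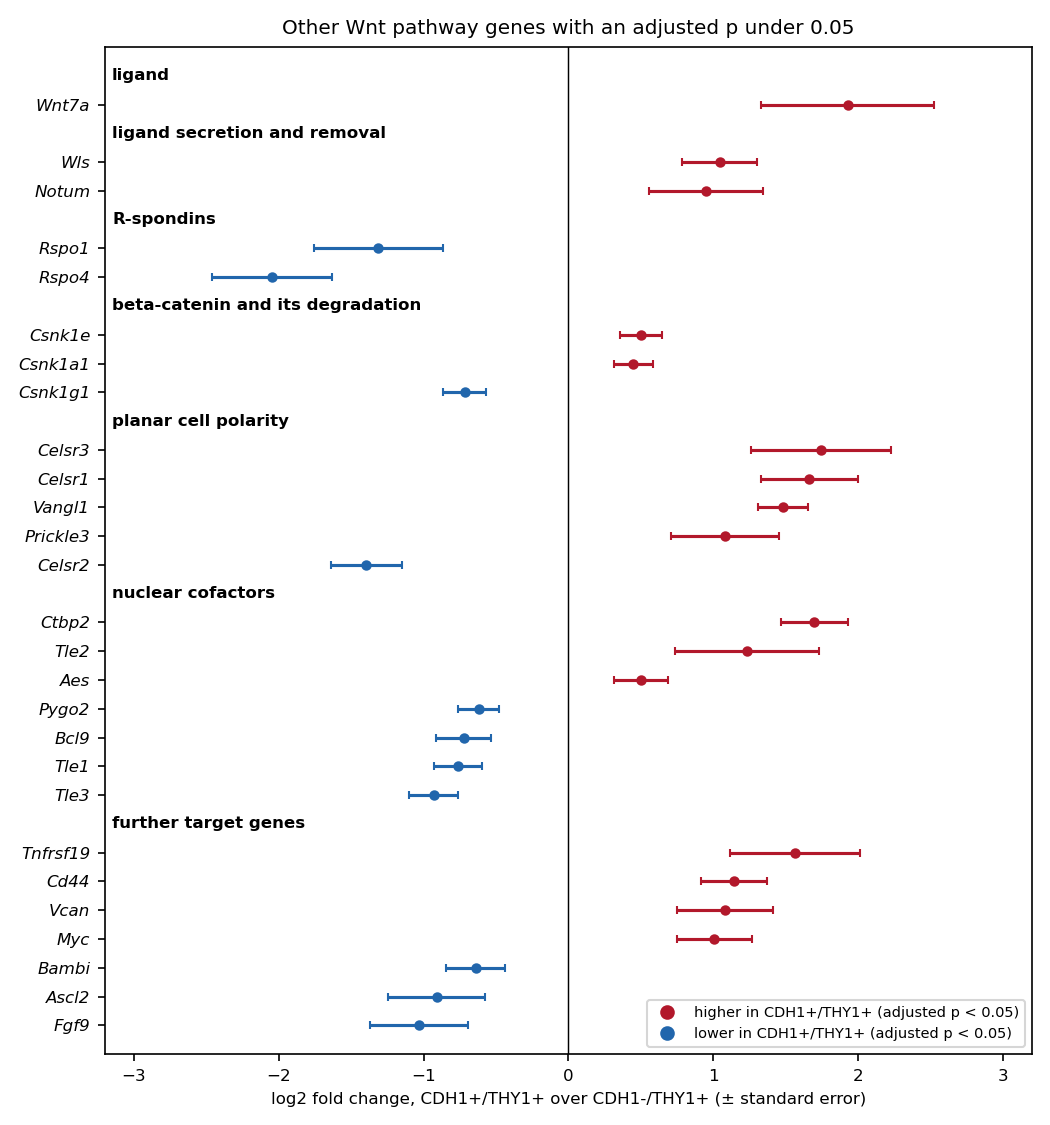
Log2 fold change (x axis; CDH1+/THY1+ relative to CDH1-/THY1+) of the 27 further pathway genes called in the authors' deposited table, by function, with bars for 1 standard error. The 16 higher genes (red) include Vangl1 and Ctbp2 and the 11 lower genes (blue) include Celsr2 and Rspo4.

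**Figure D5:**
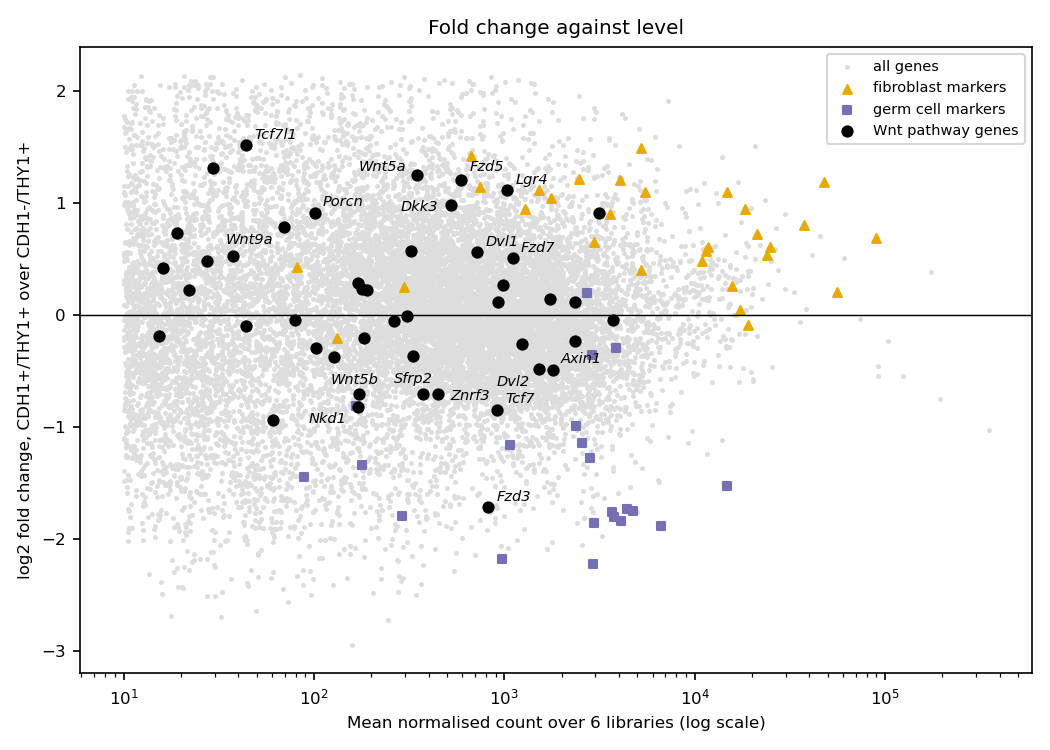
Log2 fold change (y axis; CDH1+/THY1+ relative to CDH1-/THY1+) against mean normalised count (x axis, log scale) for every gene whose mean count reached 10 (grey), fibroblast markers (triangles), germ cell markers (squares) and Wnt pathway genes (black, called genes named). The fibroblast markers lie mostly above 0 (median 0.71), the germ cell markers mostly below it (median -1.53), and the Wnt pathway genes on both sides (median 0.14).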

How the data were processed

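The authors' deposited table of 22432 rows was used. Per the submitters' processing notes it was made with Trimmomatic 0.32, TopHat2 2.1.1, featureCounts of Subread 1.5.0-p3, R 3.3.1 and its package DESeq2 1.12.3, on the build GRCm38.p4. The annotation, the use of strand in counting and the model formula are not given in the sources used here. Per the file headers, the mean normalised count is a signal averaged over the 6 libraries, both the fold change and its standard error are on the log2 scale, the Wald statistic is a score, and each gene has a p-value and an adjusted p-value, which was empty in 3221 rows. No deposited standard error exceeded 0.64, a limit that shrunken fold changes have, so they may understate changes of genes with few reads.

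Symbols, coordinates and exon lengths came from GENCODE M21 (GRCm38), matched by Ensembl identifier for 22317 rows. Intervals of 95% are the log2 fold change plus and minus the normal quantile times the standard error, not adjusted. Levels per kilobase divide the mean count by the length of all annotated exons, whichever transcripts were present. Each standard error was ranked within the 200 genes nearest in mean count, where that count was at least 50. The adjustments were tested on simulated data. Tables were made with Python 3.11.15 and pandas 2.3.3. All called members, and the most abundant per role, were given in full, and of the further genes the 10 largest statistics at a mean count of at least 100 and Ctnnb1. Some further genes of the same groups were named beside them. The genes and lists were chosen with earlier results of these data known.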

Additional observations from a re-analysis of the deposited data

How the results depend on the processing

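No fold change reversed, since every alternative kept the deposited values. Of 9 higher and 8 lower members, a Benjamini-Yekutieli adjustment over all genes left 4 and 4, and a fold of at least 2 left 4 and 1. The Benjamini-Yekutieli adjustment left 1 called ligand, 0 secreted inhibitors, 0 target genes and 0 genes of ligand processing. A fold of at least 2 left 1 ligand, 1 intracellular part, and 0 in each of those 3 roles. An adjusted p under 0.01 left 1 secreted inhibitor and 0 genes of ligand processing, and Benjamini-Hochberg on every p-value of the table also left 0 genes of ligand processing. Without the tenth of genes with the widest standard errors for their mean count, 35 members remained and 1 secreted inhibitor was called. Wnt5a, Lgr4 and Dkk3 were among the called genes left out there. Of 16 higher and 11 lower further genes, the Benjamini-Yekutieli adjustment left 9 and 7, a fold of at least 2 left 4 lower, and leaving out the widest standard errors left 9 higher. Wls, Celsr1 and Ctbp2 were among the further genes left out for wide standard errors. A mean count of at least 100 left out Wnt9a and Tcf7l1 among the called members. No paired analysis was possible because the table holds no value per library, and leaving out each replicate was not run for the same reason.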

Other observations

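Wnt genes that neighbour each other could be set side by side. Wnt3a and Wnt9a, 16176 bases apart on chromosome 11, had log2 fold changes of 0.69 and 0.78 in the authors' deposited table, and only Wnt9a was called. Wnt3 and Wnt9b, 24329 bases apart on the same chromosome, had -0.37 and -1.10 in the authors' deposited table, and neither was called. Chromosome 11 holds 9 of the 47 members. Wnt7a, a ligand outside the members, had 1.93 ± 0.60 (adjusted p = 0.00539) at a mean count of 29.4 in the authors' deposited table. The Wnt7a call did not hold under Benjamini-Yekutieli (adjusted p = 0.0733).

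Sertoli cells secrete several Wnt signals and support germ cells in the testis, and 2 of the 9 listed markers with an adjusted p were called, 22.2% against 33.5% of all genes tested. Kitl was higher at 1.09 ± 0.39 and Trf was lower at -1.10 ± 0.28 in the authors' deposited table. Mean counts over the 10 markers with a row ran from 2.27 for Amh, which has no adjusted p, to 1028 for Inhbb in the authors' deposited table. The transcription factor genes Wt1, Sox9 and Gata4 had 72.8, 67.1 and 31.4, and none of them was called.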
